A study of Homo sapiens with 12 samples.

Results

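The transcripts described here are the rows of the RPKM table (reads scaled by gene length and by the reads of the library) whose names mark them as long intergenic (LINC), antisense or intronic (-AS1, -AS2, -IT1) or as known only by the sequenced clone that holds them (AC, AL or AP with a clone number). Of 58233 rows, 22087 carried such a name, and the 715 with at least 3 RPKM in at least 3 of the 12 libraries were kept. They were chosen by a name and by their measured level, and the level can depend on treatment. Only in libraries with ATRA did 17 rows reach 3 RPKM, and 10 only in libraries without it. In all, 43 rows, these 17 among them, reached it only in treated libraries. Counts of called rows are split below by the 17 and the 10, and not by the 43. Rows of these 3 kinds had to be higher in the groups through which they entered, which is said where their calls are described. HL-60 is an established cell line from a human acute myeloid leukaemia. The 12 libraries came from untreated cells and from cells treated for 3 h with 100 nM ATRA (all-trans retinoic acid, the ligand of the retinoic acid receptors), with 500 nM palbociclib (which inhibits CDK4 and CDK6, kinases of the cell cycle) or with both, 3 libraries each. The study's methods speak of independent experiments in general and of triplicates for the sequencing, without saying that the 3 libraries of a group came from separate cultures, so p-values measure the spread between libraries, which may be technical. The authors deposited RPKM rounded to whole numbers, and the read depth of each library is unknown from them.

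A long non-coding RNA (lncRNA) is a transcript without a known protein product, and many are read from the strand opposite a protein-coding gene or start beside one. A processed pseudogene is a copy of a spliced mRNA that was written back into the genome, usually without introns and no longer coding. Highly transcribed housekeeping genes, those of ribosomal proteins above all, have left many such copies in the human genome. A short read from the mRNA and one from a near-identical copy can be alike, so that RNA-seq values of such pairs are hard to keep apart. ATRA acts on genes through nuclear receptors within hours, and HL-60 cells respond to it with granulocytic differentiation.

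The names did not describe what most of these rows are. By Ensembl identifier 702 of the 715 were found in the GENCODE v44 annotation of hg38. That annotation lists 588 of them as pseudogenes, of which 520 are processed pseudogenes, 97 as lncRNAs, 10 as protein coding and 7 as awaiting experimental support, and it does not hold the other 13. Among the clone-named rows, 584 of 683 were pseudogenes. The 18 antisense or intronic names were lncRNAs in 17 cases and the 14 LINC names in 8. The label of long non-coding RNA therefore held for the smaller share, and both kinds are described separately here.

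The most abundant rows show why the copies matter. RPS27 encodes a protein of the small ribosomal subunit, and the highest row of all, AC005912.1 (RPS27P3, chr12:3211663-3211917, minus strand), differed from the RPS27 mRNA at 1 of 255 bases. AC099336.2 (RPS27P8, chr1:202471864-202472117, minus strand) differed at 2 of 254 and AP000936.3 (RPS27P19, chr11:117035797-117036051, minus strand) at 5 of 255. Their sequences are printed beside that of RPS27 from GENCODE v44 transcripts on hg38, 5′ to 3′, with each base of a copy that differs from RPS27 in capitals.
RPS27 (chr1:153990762-153992155, plus strand, bases 36 to 290 of the mRNA): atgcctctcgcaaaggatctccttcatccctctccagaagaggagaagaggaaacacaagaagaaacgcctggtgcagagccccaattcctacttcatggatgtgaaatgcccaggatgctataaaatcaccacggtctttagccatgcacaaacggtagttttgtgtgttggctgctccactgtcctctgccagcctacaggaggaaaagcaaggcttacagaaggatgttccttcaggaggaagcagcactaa
AC005912.1: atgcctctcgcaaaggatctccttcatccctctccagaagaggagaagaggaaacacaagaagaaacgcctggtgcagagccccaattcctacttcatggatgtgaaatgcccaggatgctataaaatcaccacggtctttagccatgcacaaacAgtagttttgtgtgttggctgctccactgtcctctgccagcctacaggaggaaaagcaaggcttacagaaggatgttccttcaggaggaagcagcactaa
AC099336.2: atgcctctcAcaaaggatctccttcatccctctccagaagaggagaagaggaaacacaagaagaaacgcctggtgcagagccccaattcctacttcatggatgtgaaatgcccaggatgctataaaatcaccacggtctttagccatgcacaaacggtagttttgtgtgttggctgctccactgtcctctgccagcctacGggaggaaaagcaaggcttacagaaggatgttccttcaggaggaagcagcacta
AP000936.3: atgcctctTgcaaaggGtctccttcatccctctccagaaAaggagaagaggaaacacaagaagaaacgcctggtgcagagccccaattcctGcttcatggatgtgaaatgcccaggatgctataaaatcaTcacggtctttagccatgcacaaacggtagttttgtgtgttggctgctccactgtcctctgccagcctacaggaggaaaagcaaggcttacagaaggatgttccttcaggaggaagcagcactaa
AC005912.1 was at 561, 485 and 590 RPKM in the untreated libraries, against 1163, 1095 and 1168 RPKM for RPS27. A read that touches none of the capitals is the same in RPS27 and its copy.

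The second set of sequences belongs to the copy with the largest loss under palbociclib. AC112777.1 (chr12:20551590-20553012, plus strand) is a processed pseudogene of UHRF1, which encodes a protein that keeps DNA methylation in place during replication. Over 1423 bases the copy had 99.4% identity with UHRF1. The 150 bases with most differences are printed, with the 5 that differ in capitals.
UHRF1 (bases 1882 to 2031 of the mRNA): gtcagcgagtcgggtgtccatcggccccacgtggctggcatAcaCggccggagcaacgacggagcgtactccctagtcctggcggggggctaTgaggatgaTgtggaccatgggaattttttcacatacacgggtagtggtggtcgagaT
AC112777.1 (bases 346 to 495): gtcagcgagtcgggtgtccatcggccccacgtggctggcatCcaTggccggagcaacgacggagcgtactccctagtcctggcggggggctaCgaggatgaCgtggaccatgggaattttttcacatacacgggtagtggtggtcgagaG

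The third set belongs to the lncRNAs that responded to ATRA. AC011899.2 (PTPRN2-AS1) lies on the plus strand at chr7:157854529-157863011, inside PTPRN2, a receptor-type phosphatase gene on the minus strand. The window from 250 bases before to 50 bases after its annotated start is chr7:157854279-157854578 (hg38, plus strand). In it lay 1 match to AGGTCA, the core letters that retinoic acid receptors bind, and 1 to CACGTG, both in capitals. CACGTG is the E box that MYC and MAX bind. The same window of AC011899.3 (chr7:157868288-157868587), a second lncRNA inside PTPRN2 that rose with ATRA, held 0 matches. Of the promoter windows of all genes 13.8% held AGGTCA. SLC9A3-AS1 (chr5:473236-480884, plus strand) is read from a promoter in RefSeq (chr5:472986-473285, GRCh38.p14, plus strand) in which none of the letters searched was found.
AC011899.2: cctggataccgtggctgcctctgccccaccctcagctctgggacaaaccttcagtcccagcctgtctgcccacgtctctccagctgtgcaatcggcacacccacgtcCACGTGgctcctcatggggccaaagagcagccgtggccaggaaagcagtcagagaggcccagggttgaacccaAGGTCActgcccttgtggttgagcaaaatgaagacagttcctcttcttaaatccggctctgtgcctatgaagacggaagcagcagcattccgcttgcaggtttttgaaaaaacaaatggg
SLC9A3-AS1: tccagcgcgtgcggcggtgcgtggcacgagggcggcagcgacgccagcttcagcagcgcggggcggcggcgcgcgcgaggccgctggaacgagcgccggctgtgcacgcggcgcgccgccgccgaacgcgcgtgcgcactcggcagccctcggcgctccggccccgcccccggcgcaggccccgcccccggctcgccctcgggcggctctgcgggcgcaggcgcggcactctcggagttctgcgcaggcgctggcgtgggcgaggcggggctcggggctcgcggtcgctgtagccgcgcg
AL034397.3 (MIR223HG, chrX:66015414-66020426, plus strand) is the host transcript of miR-223, a microRNA of myeloid cells. Both mature forms are printed from RefSeq with the seed, bases 2 to 8, in capitals. The mature forms themselves were not measured, since the libraries were made from poly(A) RNA.
hsa-miR-223-5p: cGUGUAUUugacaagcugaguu
hsa-miR-223-3p: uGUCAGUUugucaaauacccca

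The cells carried the markers of their lineage. Of 10 myeloid markers 9 were at 3 RPKM or more in every library, with MPO between 1077 and 1579, whereas ELANE was at 0 or 1 RPKM, and 10 of 12 markers of other blood cells were listed at 0 in all libraries. Replicate 1 of each treated group stood apart from the other libraries. The 715 rows summed to 23743 to 24560 RPKM in these 3 libraries (6.08% to 6.35% of all RPKM) and to 19457 to 21476 RPKM (5.31% to 5.76%) in the other 9. The pseudogenes of ribosomal protein genes summed to 18787 to 19586 against 14781 to 16832 RPKM, and the 83 ribosomal protein genes themselves to 35542 to 36971 against 28373 to 31696 RPKM. Counts of called pseudogenes are therefore also given without these 3 libraries.

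**Figure D1:**
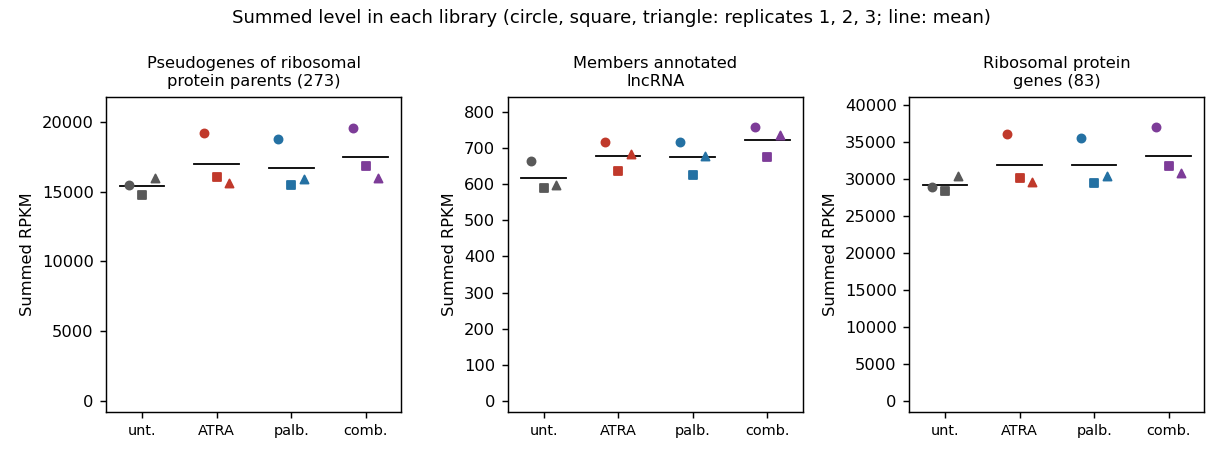
Summed RPKM in each of the 12 libraries for the 273 pseudogenes with a ribosomal protein parent, the 97 lncRNAs and the 83 ribosomal protein genes, by group (unt., untreated; palb., palbociclib; comb., combination), with the mean as a line. For the pseudogenes and the ribosomal protein genes the first replicate of each treated group, a circle, lies above the other 9 libraries.

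The level of the rows differed by annotation. The 588 pseudogenes held 95.8% of the summed RPKM of the 715 rows and the 97 lncRNAs 3.15%. Each row was given its mean over the 12 libraries, and the median of these means was 9.08 RPKM for the pseudogenes and 3.42 RPKM for the lncRNAs. The highest lncRNA was LRRC75A-AS1 (SNHG29, a host gene of small nucleolar RNAs) at a mean of 139.8 RPKM. In all, 53 rows had a mean of at least 100 RPKM, 291 of at least 10 RPKM and 269 of less than 5 RPKM. The floor was reached in all 12 libraries by 517 rows and in exactly 3 libraries by 32. Just inside it, AL021407.1, AC093627.4 and AL355488.2 had means of 1.67, 1.75 and 1.83 RPKM with 3 libraries at 3 RPKM or more. Just outside it, AC044913.1, AC046185.3 and AC093155.1 had 2.17 RPKM each with 2 such libraries.

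**Figure D2:**
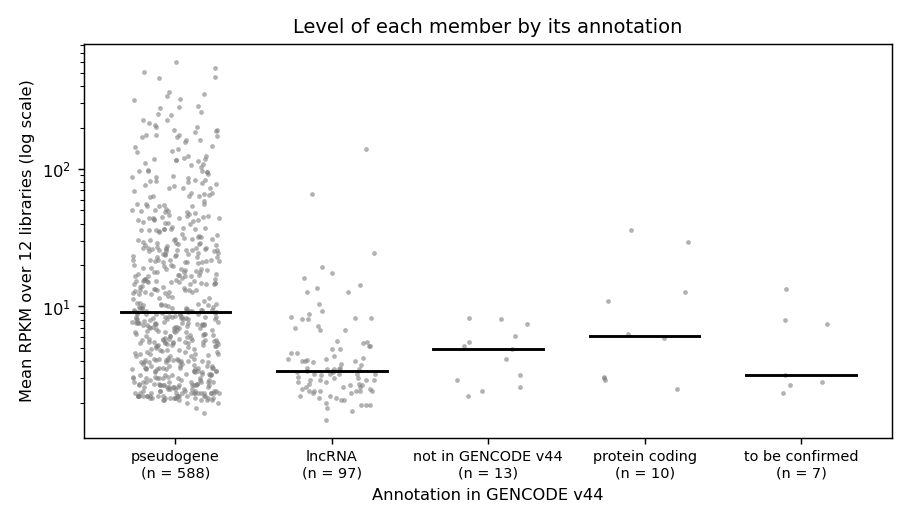
Mean RPKM over the 12 libraries of each of the 715 rows on a log scale, by its annotation in GENCODE v44, with the median of each class as a line. The pseudogenes reach 602 RPKM with a median of 9.08 RPKM, and the lncRNAs have a median of 3.42 RPKM.

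The 12 highest rows were all pseudogenes of ribosomal protein genes. After AC005912.1 came AC016739.1 with 545 RPKM (mean of 12 libraries), a copy of RPLP1, AC099336.2 with 507 and AP000936.3 with 467. AP005202.1 (RPL6P27) followed with 461 RPKM, AC034236.1, a copy of RPS25, with 364, and AC073861.1 (RPS18P5) with 350. AL590867.2, AC026366.1, AC019205.3 and AC078814.1, copies of RPL27A, RPS2, RPL39 and RPL14, lay between 281 and 342 RPKM. These levels did not follow those of the parents in order. AC005912.1 was at 48.7% of RPS27 and AC026366.1 at 21.3% of RPS2, whereas AC016739.1 was at 155% of RPLP1 and AC078814.1 at 242% of RPL14. None of the 12 differed between treated and untreated groups at an adjusted p below 0.05. AC019205.3 was identical to RPL39 over all of its 156 bases and was at 286 RPKM beside 294 RPKM for RPL39.

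Matches to protein-coding mRNAs were found for 578 of the 588 pseudogenes, 575 of them in the same sense. They pointed to 282 different parent genes. The median identity was 95.3%, 302 copies had at least 95% and 12 were identical to the parent over their whole length. Ribosomal protein genes were the parents of 273 copies and 59 of these genes had at least 1. RPL21 was the parent of 26 rows, RPS3A and PPIA (cyclophilin A) of 16 each, RPS2 of 15 and RPL7A and RPS10 of 13 each. A copy had a median of 11.9% of the RPKM of its parent and 50 were above it. How many reads of a copy came from the parent was not tested, since the table holds no reads.

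ATRA was compared with no treatment first, over all 9659 rows that reached the floor, with a row called at an adjusted p below 0.05 (limma on log2(RPKM + 0.5)). Of the 715 rows 36 rose and 15 fell, that is 5.03% and 2.10%, whereas over all tested rows 8.31% rose and 11.2% fell. Their median log2 fold change was 0.08 and that of all tested rows -0.01. Without the first replicates of the treated groups 37 rose and 31 fell. Over all tested rows 1122 rose and 1623 fell in that fit, against 803 and 1077 with all libraries. Of the 97 lncRNAs 17 rose (17.5%) and 3 fell (3.09%), and of the 588 pseudogenes 16 rose (2.72%) and 10 fell (1.70%). The floor bears on these counts. Of the 17 lncRNAs that rose 5, and of the 16 pseudogenes 3, reached 3 RPKM only in libraries with ATRA and so had to be higher there. Of all 15 rows that fell, 3 reached it only in libraries without ATRA. In bulk RNA, fewer cells that make a transcript and less of it per cell cannot be told apart. Among the 27 lncRNAs with a mean of at least 5 RPKM, 7 rose and 2 fell. Without those first replicates 18 lncRNAs rose and 4 fell, and 16 pseudogenes rose and 24 fell.

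The lncRNAs that rose with ATRA were led by 2 rows listed at 0 without it. AC011899.2 was at 0 RPKM in all untreated and palbociclib libraries, at 5, 7 and 8 RPKM with ATRA and at 4, 8 and 8 RPKM with the combination (adjusted p = 7.13e-06 for ATRA and 5.45e-06 for the combination against untreated). AC011899.3 (chr7:157868538-157869154, plus strand), 5527 bases further along the same gene, was also at 0 RPKM in these 6 libraries, at 2, 3 and 3 RPKM with ATRA and at 3, 4 and 3 RPKM with the combination (adjusted p = 3.06e-06 and 1.03e-06). For both, the libraries with and without ATRA did not overlap, and both reached the floor only through libraries with ATRA. PTPRN2, the gene around them on the other strand, was at 3 RPKM in each untreated library and 5 RPKM in each ATRA library (log2 fold change 0.65 ± 0.04 SE, adjusted p = 3.45e-06). The counting is stated with default settings and the kit is not stated to mark strand, so reads of PTPRN2 and of these antisense rows cannot be told apart where they overlap. In GENCODE v44 the exons of neither row overlap those of PTPRN2.

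Other lncRNAs were listed above 0 RPKM without ATRA. SLC9A3-AS1, named for an ion exchanger gene beside it, was at 1 RPKM in all 3 untreated libraries, at 3 RPKM in all 3 with ATRA and at 4, 3 and 4 RPKM with the combination (log2 fold change 1.22 ± 0.09 and 1.46 ± 0.09 SE, adjusted p = 1.99e-05 and 5.09e-06). AC026740.1 (chr5:675826-676616, plus strand) was at 4, 4 and 3 RPKM untreated, at 9, 9 and 11 RPKM with ATRA and at 11, 9 and 12 RPKM with the combination (1.29 ± 0.18 and 1.42 ± 0.18, adjusted p = 0.000807 and 0.000307). The libraries with ATRA and the untreated libraries were apart in both rows, of which SLC9A3-AS1 reached the floor only with ATRA. The replicates of SLC9A3-AS1 were equal within the untreated and within the ATRA group. With a residual variance of at least that of rounding its adjusted p for ATRA was 0.000253. AC073869.3 (chr2:131461821-131463615, minus strand) was at 2 RPKM in all 6 libraries without ATRA and at 5 to 7 RPKM in the 6 with it, through which alone it reached the floor. AC040977.1 (chr17:6994642-6995189, minus strand) was at 2, 3 and 3 RPKM untreated, 8, 5 and 7 RPKM with ATRA and 10, 6 and 9 RPKM with the combination, where its log2 fold change was 1.47 ± 0.27 (adjusted p = 0.00279).

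The host transcript of miR-223 was the most abundant lncRNA among those that rose. AL034397.3 was at 14, 13 and 17 RPKM in the untreated libraries, at 29, 28 and 34 RPKM with ATRA, at 17, 17 and 19 RPKM with palbociclib and at 36, 30 and 42 RPKM with the combination. ATRA raised it by 1.03 ± 0.13 SE on the log2 scale (adjusted p = 0.000645) and the combination by 1.26 ± 0.13 (adjusted p = 0.000121), while palbociclib alone gave 0.27 ± 0.13 (adjusted p = 0.352). All 6 libraries with ATRA lay above all 6 without it. LINC00926 rose from 9.33 to 14.3 RPKM with ATRA (0.59 ± 0.17, adjusted p = 0.0394, and up to 0.128 when single libraries were left out) and to 18.0 RPKM with the combination (0.91 ± 0.17, adjusted p = 0.00366).

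**Figure D3:**
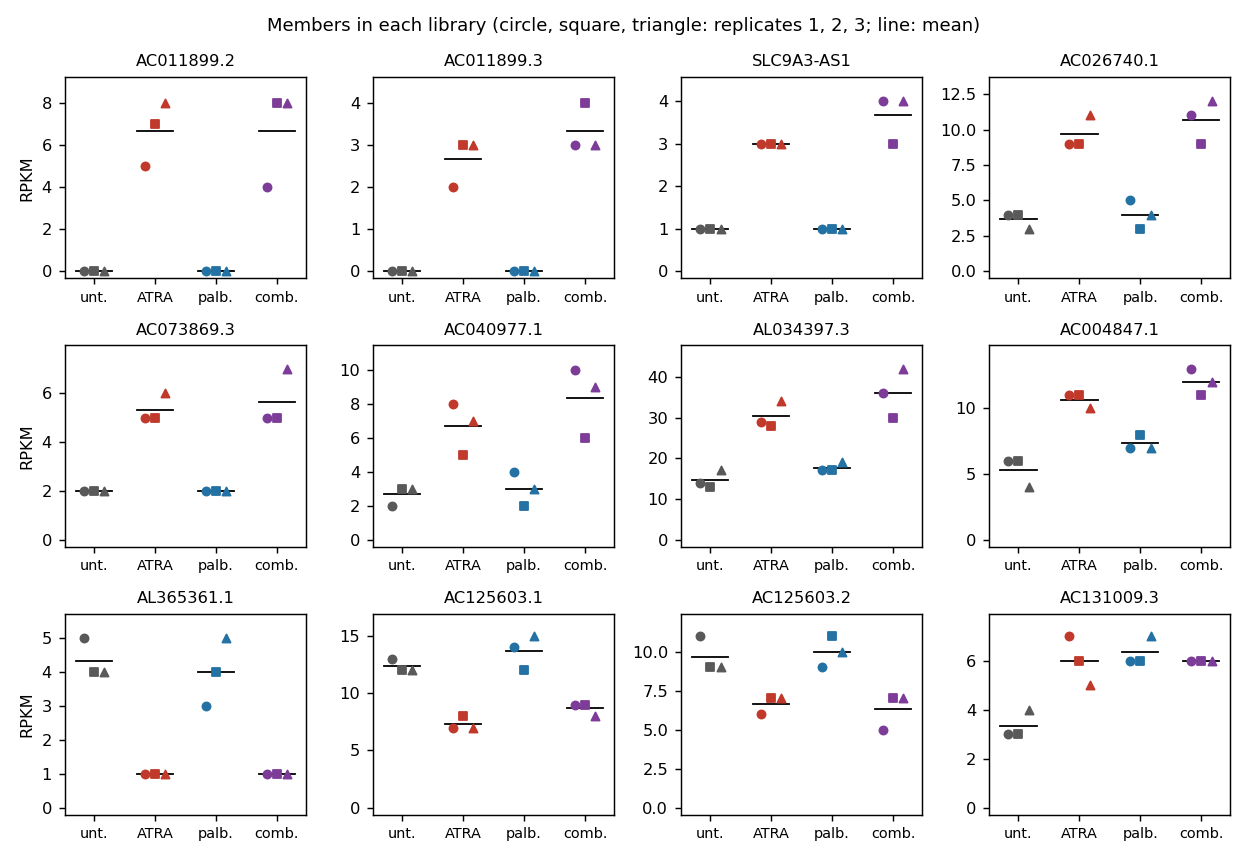
RPKM of 12 rows in each library, by group (unt., untreated; palb., palbociclib; comb., combination), with replicates 1 to 3 as circle, square and triangle and the group mean as a line. In the first 8 panels every library with ATRA lies above every library of the untreated and palbociclib groups, AL365361.1, AC125603.1 and AC125603.2 lie lower with ATRA, and AC131009.3 is higher in all 3 treated groups.

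Tested rows within 100 kb were looked up for the lncRNAs that were called. Of the 20 lncRNAs called with ATRA 19 had at least 1, and for 11 of them at least 1 such neighbour was called in the same direction, for 1 in the opposite. Of their 48 neighbours 12 (25%) were called in the direction of the lncRNA, which was a rise for 17 of the 20. Over all tested rows 8.31% rose and 11.2% fell, 19.5% in either direction. With the combination 13 of 23 lncRNAs had such a neighbour and 5 had one called in the opposite direction. Of 66 neighbours 14 (21.2%) went the same way, where 23 of the 26 called lncRNAs rose. Over all tested rows 11.8% rose and 16.6% fell, 28.4% in either direction. Whether neighbours went with the lncRNAs more often than other rows was not tested. FAM20C, which encodes a kinase of secreted proteins, lay 37106 bases from AC093627.4 (LINC03014, chr7:149549-155465, plus strand). FAM20C rose from 9, 7 and 8 to 45, 48 and 47 RPKM with ATRA (2.48 ± 0.10, adjusted p = 6.6e-07), and AC093627.4, which reached the floor only with ATRA, rose from 1 RPKM in each untreated library to 2, 2 and 3 RPKM (0.90 ± 0.16, adjusted p = 0.00317). CEP72, a centrosomal protein gene 8658 bases from AC026740.1, rose from 6, 6 and 5 to 10, 12 and 13 RPKM (0.98 ± 0.12, adjusted p = 0.000439). MYO1G, a myosin gene of blood cells, lay 1753 bases from AC004847.1 (chr7:44958999-44960909, minus strand). MYO1G rose from 15, 16 and 15 to 21, 25 and 26 RPKM (0.62 ± 0.10, adjusted p = 0.00246) and AC004847.1 from 6, 6 and 4 to 11, 11 and 10 RPKM (0.96 ± 0.14, adjusted p = 0.000958). Each of these pairs rose in the same direction, with libraries that did not overlap.

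Of the 10 rows that code for protein by the annotation, 2 rose with ATRA and with the combination and 1 fell with the combination. AC051649.2 (PRR33, chr11:1888078-1891895, minus strand) was at 1 RPKM in each untreated library, at 5, 5 and 4 RPKM with ATRA, at 2, 2 and 1 RPKM with palbociclib and at 5 RPKM in each combination library (1.78 ± 0.18 for ATRA, adjusted p = 0.000109), and reached the floor only with ATRA. Its exons overlap those of LSP1, an actin-binding protein gene of leukocytes on the other strand, over 3.22% of their length. LSP1 rose from 18, 20 and 20 to 31, 35 and 40 RPKM with ATRA (0.85 ± 0.11, adjusted p = 0.000549). AC011498.1 carries the gene name HDGFL2 in GENCODE v44 and rose from 9, 10 and 9 to 12, 13 and 12 RPKM (0.38 ± 0.05, adjusted p = 0.000988). AC093323.1 was at 8, 7 and 7 RPKM untreated and at 6, 4 and 5 RPKM with the combination (-0.52 ± 0.16, adjusted p = 0.0328, and up to 0.11 when single libraries were left out). AC012073.1, a lncRNA, was called higher with the combination (0.36 ± 0.11, adjusted p = 0.0364, and up to 0.0873 when single libraries were left out) while ADCY3, an adenylate cyclase gene whose exons it overlaps on the other strand over 7.67% of its length, was called lower (adjusted p = 0.0121). Exons of 37 of the 715 rows overlapped those of a tested gene on the other strand, 25 of them lncRNAs, and in 8 the overlap covered over 50% of the exons.

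Fewer rows fell with ATRA. AL365361.1, which GENCODE v44 does not hold, was at 5, 4 and 4 RPKM untreated and at 1 RPKM in each of the 6 libraries with ATRA (-1.68 ± 0.14 SE for ATRA, adjusted p = 4.74e-05). It reached the floor only in libraries without ATRA and so had to be lower with it. AC125603.1 and AC125603.2 (chr12:116698336-116703130 and chr12:116661582-116698065, both plus strand) are lncRNAs 271 bases apart. AC125603.1 fell from 13, 12 and 12 to 7, 8 and 7 RPKM (-0.71 ± 0.09, adjusted p = 0.000436) and AC125603.2 from 11, 9 and 9 to 6, 7 and 7 RPKM (-0.50 ± 0.14, adjusted p = 0.0282, and up to 0.107 without untreated replicate 1 or any 1 ATRA library). In these 3 rows no ATRA library reached an untreated one. RNASEH1-AS1 was the other lncRNA that fell, from 4, 4 and 5 to 3 RPKM in each library (-0.46 ± 0.13, adjusted p = 0.0375, and up to 0.12 without any 1 of the 6 libraries compared). AC027031.2, at 4, 3 and 3 RPKM untreated and 2, 1 and 1 RPKM with ATRA (-1.10 ± 0.30, adjusted p = 0.0311), lost its call without any 1 of the untreated libraries, ATRA replicate 2 or ATRA replicate 3, with adjusted p-values of up to 0.111, and it too reached the floor only without ATRA.

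Antisense rows were also set beside the genes they are named for. ITGB2-AS1, opposite the gene of an integrin of leukocytes, was at 2, 3 and 2 RPKM untreated, 3, 4 and 4 RPKM with ATRA and 4, 5 and 5 RPKM with the combination (0.57 ± 0.15 and 0.88 ± 0.15, adjusted p = 0.0258 and 0.002). Without untreated replicate 1 or 3 or ATRA replicate 2 or 3 the ATRA call was lost, with adjusted p-values of up to 0.0969. ITGB2 itself had means of 58.0, 65.0 and 67.7 RPKM and was not called (adjusted p = 0.191 and 0.065). GATA2, a gene of a progenitor transcription factor, fell from 9.67 to 3.67 RPKM with ATRA (-1.29, adjusted p = 0.0178), and GATA2-AS1 was at 2, 3 and 4 RPKM untreated and at 1, 2 and 3 RPKM with ATRA (adjusted p = 0.388). MAFG rose from 23.7 to 31.3 RPKM and MAFG-AS1 was not called (adjusted p = 0.646). OTUD6B fell from 13.3 to 8.67 RPKM and OTUD6B-AS1 had a mean of 2.67 RPKM in both groups. A p above the threshold does not show that the antisense rows stayed level, since they are near the floor of the table, where a step of 1 RPKM is the smallest difference that can be seen.

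Palbociclib alone moved few of the rows. Of the 715, 4 rose and 3 fell, with a background of 1.12% higher and 3.1% lower over all tested rows. Of the 97 lncRNAs 3 rose (3.09%) and 2 fell (2.06%), and of the 588 pseudogenes 1 rose and 1 fell (0.17% each). Without the first replicates of the treated groups 8 of the 715 rose and 6 fell. Over all tested rows 254 rose and 470 fell in that fit, against 108 and 299 with all libraries. AC112777.1, the UHRF1 copy, was at 9, 12 and 12 RPKM untreated, at 5, 7 and 5 RPKM with palbociclib and at 5, 6 and 5 RPKM with the combination. Its log2 fold change was -0.90 ± 0.16 SE with palbociclib (adjusted p = 0.0109) and -0.97 ± 0.16 with the combination (adjusted p = 0.00146). UHRF1 went from 48, 58 and 55 to 26, 31 and 30 RPKM with palbociclib (-0.88 ± 0.10, adjusted p = 0.0009) and to 26, 29 and 28 RPKM with the combination (-0.94 ± 0.10, adjusted p = 0.00011). No treated library of either row reached an untreated one. Without the first replicates of the treated groups the palbociclib value of AC112777.1 was -0.83 (adjusted p = 0.0618). Its palbociclib call was also lost in a fit of only the groups compared (adjusted p = 0.0951).

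The other lower rows under palbociclib were AC127502.2, from 4, 3 and 4 to 2 RPKM in each library (-0.73 ± 0.17, adjusted p = 0.0481), and FGD5-AS1, from 6, 5 and 5 to 4 RPKM in each (-0.37 ± 0.08, adjusted p = 0.0372). The higher rows were AC131009.3, TRG-AS1, AL391244.1 (MRPL20-AS1) and AL031284.1. AC131009.3 (chr12:131934642-131934928, plus strand) rose from 3, 3 and 4 to 6, 6 and 7 RPKM (0.84 ± 0.13, adjusted p = 0.00575), and it was also higher with ATRA, at 7, 6 and 5 RPKM, and with the combination, at 6 RPKM in each library. TRG-AS1, antisense to the T cell receptor gamma locus, went from 2 RPKM in each library to 3, 3 and 4 RPKM (0.61 ± 0.14, adjusted p = 0.0411). Its means were 2.0 RPKM with ATRA and 2.33 RPKM with the combination, so only its palbociclib libraries all reached the floor. No untreated library did, so TRG-AS1 was kept through treated libraries and had to be higher there. AL391244.1 rose by 0.36 ± 0.07 (adjusted p = 0.0295) and AL031284.1, a copy of the succinate dehydrogenase subunit gene SDHD, by 0.34 ± 0.07 (adjusted p = 0.0372). Leaving out single libraries ended 5 of the 7 calls, and only AC131009.3 and AC112777.1 kept theirs throughout, with adjusted p-values of up to 0.0287 and 0.0496. The other 5 reached adjusted p-values of 0.0909 for AL391244.1, 0.095 for FGD5-AS1, 0.116 for TRG-AS1, 0.12 for AL031284.1 and 0.153 for AC127502.2.

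The combination moved the largest number. Against untreated cells 60 of the 715 rows rose (8.39%) and 36 fell (5.03%), beside 11.8% higher and 16.6% lower over all tested rows. The median log2 fold change was 0.10 and that of all tested rows 0.00. Of the lncRNAs 23 rose (23.7%) and 3 fell (3.09%), and 7 of the 23 reached the floor only in libraries with ATRA. Of the pseudogenes 34 rose (5.78%) and 31 fell (5.27%), of which 2 and 3 reached it only in libraries with and without ATRA. Without the first replicates of the treated groups 67 rows rose and 57 fell, among them 23 and 5 lncRNAs and 40 and 46 pseudogenes. Over all tested rows 1475 rose and 2082 fell in that fit, against 1141 and 1605 with all libraries. Besides the rows named for ATRA, AL365181.3, which reached the floor only with ATRA, went from 1 RPKM untreated to a mean of 2.67 RPKM and AL359921.2 from 2.67 to 5.33 RPKM.

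The pseudogenes were also counted by parent. Of the 273 copies of ribosomal protein genes 9 rose with ATRA (3.30%) and 23 with the combination (8.42%), below the 8.31% and 11.8% of all tested rows that rose, and limma called 0 lower in either comparison, with 0 lower and 34 and 49 higher at an unadjusted p below 0.05. With libraries scaled by their median ratio 21 rose with ATRA and 42 with the combination, beside 854 and 1276 of all tested rows. Of the other 315, 7 rose and 10 fell with ATRA, and 11 rose and 31 fell with the combination. Leaving out the first replicates of the treated groups, these were 7 and 21 with ATRA and 16 and 44 with the combination. The difference between both kinds of copy was not tested. The median log2 fold change of the ribosomal protein copies was 0.14 with ATRA, 0.11 with palbociclib and 0.18 with the combination, against -0.01, -0.01 and -0.06 for the others. Without those first replicates, which stood apart, the medians of the ribosomal protein copies were 0.05, 0.02 and 0.10, and 9 rose and 3 fell with ATRA and 24 rose and 2 fell with the combination. AC026403.1, a copy of RPLP0, rose from a mean of 146.0 to 179.3 RPKM with ATRA (0.30 ± 0.09, adjusted p = 0.0407, and up to 0.132 when single libraries were left out), and RPLP0 was not called (0.15 ± 0.07, adjusted p = 0.201).

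Copies were then set beside their parents. Over the 563 pairs in which the parent was also tested, with 267 parents in all, Pearson's r between the log2 fold changes was 0.64 for ATRA, 0.48 for palbociclib and 0.72 for the combination, and without the first replicates of the treated groups 0.59, 0.35 and 0.67. Copy and parent were measured in the same libraries, several copies share a parent and pairs can share reads, so the pairs are not independent and the values are descriptions. Among the 61 copies called with the combination, 59 had a parent whose log2 fold change had the same sign and 30 a parent called in the same direction, 24 of these among the 30 that fell. Over all 563 pairs, 78.5% shared the sign and 14.6% had a called parent. Leaving out the first replicates of the treated groups, 74 of 82 called copies shared the sign. With ATRA 22 of 23 shared the sign and 8 the call, beside 72.8% and 7.82% of all pairs.

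**Figure D4:**
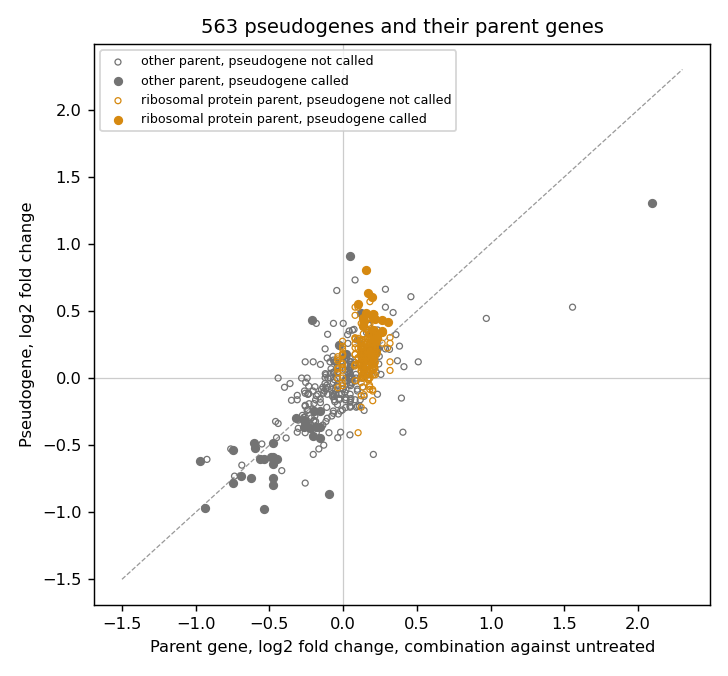
Log2 fold change of 563 pseudogenes against that of their parent genes, combination against untreated cells, with called pseudogenes filled, copies of ribosomal protein genes in orange and a dashed line where both are equal. Pearson's r was 0.72, and the 23 called copies of ribosomal protein genes lie at positive values.

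Single pairs show the range of these copies. AC128688.1 (INAVAP1) is a copy of C1orf106 (INAVA, a gene of epithelial and innate immune signalling) with 98.8% identity. AC128688.1, which reached the floor only with ATRA, went from 1 RPKM in each untreated library to 3, 4 and 4 RPKM with ATRA (1.46 ± 0.20, adjusted p = 0.000886), and C1orf106 from 5, 6 and 6 to 21, 29 and 25 RPKM (2.04 ± 0.14, adjusted p = 1.26e-05). AC021001.1 (MAPK6P5) fell from 9, 8 and 8 to 5, 6 and 6 RPKM with ATRA (-0.52 ± 0.09, adjusted p = 0.00402), and MAPK6, the gene of an atypical MAP kinase, from 30 RPKM in each library to 19, 21 and 21 RPKM (-0.55 ± 0.10, adjusted p = 0.00442). Both pairs were apart between the groups in every library. AC009487.2 (AHCTF1P1) was at 5, 4 and 4 RPKM untreated and 2, 2 and 3 RPKM with the combination (-0.78 ± 0.18, adjusted p = 0.0107). AHCTF1, the gene of a nuclear pore protein, was at 22, 19 and 19 and at 11, 12 and 12 RPKM (-0.75 ± 0.09, adjusted p = 0.000216).

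**Figure D5:**
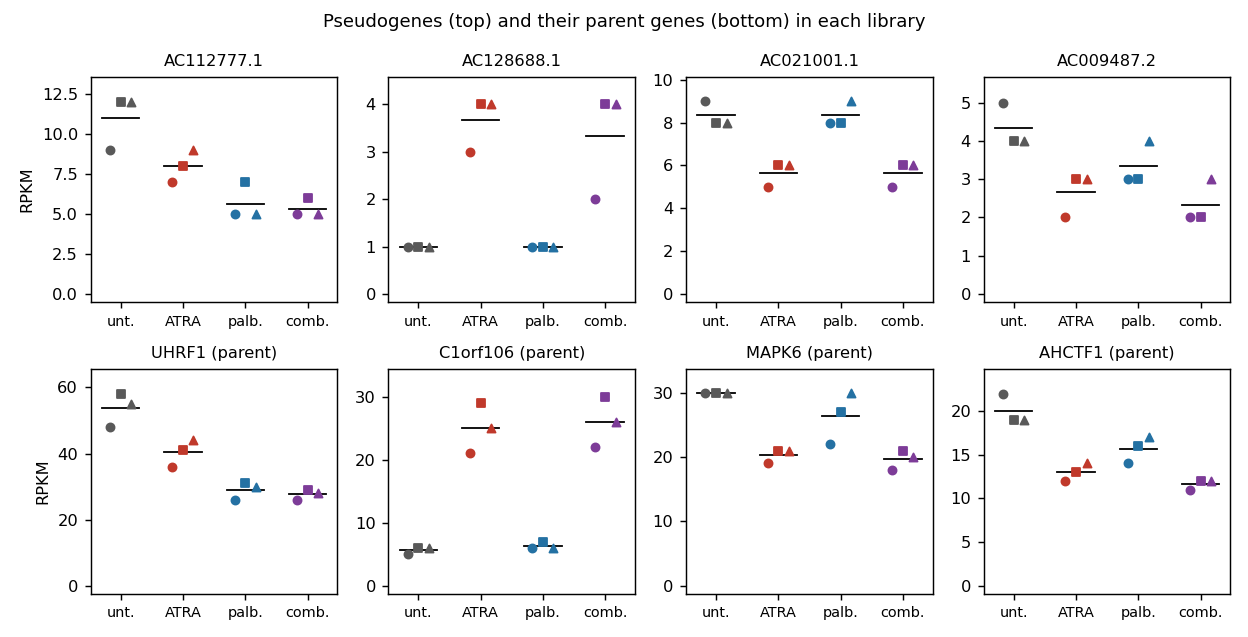
RPKM in each library of 4 pseudogenes (top) and their parent genes (bottom), by group (unt., untreated; palb., palbociclib; comb., combination), with replicates 1 to 3 as circle, square and triangle and the mean as a line. AC112777.1 and UHRF1 are lower with palbociclib and the combination, AC128688.1 and C1orf106 are higher with ATRA and the combination, and the other 2 pairs are lower in those groups.

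AC026111.1 is a copy of MAT2A, the gene of the enzyme that makes S-adenosylmethionine, and was at 4, 4 and 5 RPKM untreated and at 3, 2 and 3 RPKM with ATRA (-0.62 ± 0.18, adjusted p = 0.0407, and up to 0.136 when single libraries were left out). MAT2A went from 109, 90 and 118 to 60, 49 and 69 RPKM (-0.83 ± 0.17, adjusted p = 0.00681). AC135977.1, a copy of the mitochondrial carrier gene SLC25A33, fell from 13, 13 and 15 to 9, 8 and 9 RPKM with ATRA (-0.63 ± 0.12, adjusted p = 0.00551), with the parent at -0.40 ± 0.14 (adjusted p = 0.0754). Its mean of 10.2 RPKM lay above the 6.58 RPKM of the parent. AC234781.3 (PHF10P1), a copy of a chromatin remodelling subunit gene, was at 3 RPKM in each untreated library and at 2, 1 and 1 RPKM with the combination (-0.98 ± 0.17, adjusted p = 0.00193). It reached the floor only in the untreated libraries and so had to be lower in the others. AL049779.3 and AL035456.1, both copies of the histone chaperone gene DNAJC9, fell by 0.75 and 0.59 on the log2 scale with the combination (adjusted p = 0.0148 and 0.0119, the first 0.0544 without untreated replicate 1), and DNAJC9 fell by 0.48 (adjusted p = 0.000645). AC087481.2 went from 6, 4 and 4 to 2, 3 and 2 RPKM with the combination (-0.86 ± 0.23, adjusted p = 0.018) and lost its call without untreated replicate 1, combination replicate 1 or combination replicate 3, with adjusted p-values of up to 0.0712. Its closest mRNA, of MPHOSPH10, was not called (-0.09 ± 0.05, adjusted p = 0.192).

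Adding palbociclib to ATRA was tested by the combination against ATRA alone. At an adjusted p below 0.05, limma called 0 of the 715 rows, and 9 had an unadjusted p below 0.05, with 0.3% of all tested rows called in either direction. The replicate numbers pair the treated libraries, and with the number as a block the count stayed at 0, while 27 had an unadjusted p below 0.05. A fit with only these 2 groups called 1 row in each direction, beside 16 higher and 39 lower over all tested rows. Without the first replicates of the treated groups 4 rose and 1 fell, beside 40 and 70 over all tested rows. Whether palbociclib acted differently in the presence of ATRA was tested as an interaction. It was called for 0 rows, and 14 had an unadjusted p below 0.05, beside 0.228% of all tested rows called. Without the first replicates of the treated groups 2 rows were called in each direction, beside 88 higher and 101 lower over all tested rows.

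Adding ATRA to palbociclib moved more. With the combination against palbociclib, 22 of the 715 rows rose (3.08%) and 11 fell (1.54%), against 5.61% and 6.48% of all tested rows. With the replicate number as a block 35 rose and 30 fell, against 9.27% and 12%. The lncRNAs made up 14 of the 22 that rose and 3 of the 11 that fell. Of the 22, 9 reached the floor only with ATRA, 6 of them lncRNAs, and of the 11, 2 reached it only without ATRA, 1 of them a lncRNA, AC008736.1. AC011899.2, AC011899.3, SLC9A3-AS1, AC026740.1 and AC040977.1 were again among those that rose. AC008736.1 (NUDT19-DT) was at 5, 3 and 3 RPKM with palbociclib and at 2 RPKM in each combination library (-0.70 ± 0.18, adjusted p = 0.0312), and lost its call without any 1 of the combination libraries, with adjusted p-values of up to 0.0892. AC126755.1 (PKD1P4) went from 3 to 2 RPKM in every library (-0.49 ± 0.14, adjusted p = 0.0483, and up to 0.123 when single libraries were left out). FGD5-AS1, lower with palbociclib, was at 5 RPKM in each combination library (0.29 ± 0.08, adjusted p = 0.0472, and up to 0.119 when single libraries were left out).

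Rounding sets a limit on the low rows. Of the 187 calls over all comparisons, which belong to 108 rows, 21 were made where the 3 replicates had the same value within each group. AL669831.1, which reached the floor only with ATRA, had 2 RPKM in every library without ATRA and 3 RPKM in every library with it. Its adjusted p for ATRA was 4.92e-05, and 0.0344 with a residual variance of at least that of rounding. With that variance the adjusted p-values of the 21 calls ran from 1.22e-05 (AC051649.2, combination against untreated) to 0.0906 (FGD5-AS1, combination against palbociclib). Those above 0.05 include AC126755.1 (0.0694, combination against palbociclib) and AC012073.1 (0.0733 with ATRA, 0.0553 with the combination, against untreated). In 13 calls the libraries of the groups overlapped.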

How the data were processed

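RNA was measured by poly(A) RNA sequencing in 12 libraries of HL-60 cells, 3 per group, with groups and replicate numbers from the sample labels. The authors aligned to hg38 (HISAT2), ran htseq-count with its default settings and used voom for their own tests, with versions and gene annotation not given in the sources used here. By default htseq-count leaves out reads that map to several places. Whether the deposited RPKM leave them out was not tested. The 12 copies identical to their parents over their whole length are among the rows that reached the floor. The deposited score values are RPKM rounded by the authors to whole numbers, 1 column per library. Depth is unknown from them, so errors are those between libraries.

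Group means were estimated in 1 fit on log2(RPKM + 0.5) for the 9659 rows with at least 3 RPKM in at least 3 libraries (limma 3.58.1 with a variance trend, R 4.3.3, two-sided, Benjamini-Hochberg over all rows of a comparison, called at 0.05). This scale understates the change of low rows. The fit was tested on simulated data. For ATRA against untreated, 80, 180 and 200 of 200 rows changed by 0.5, 1 and 2 on the log2 scale were recovered. Another 9, 15 and 15 rows were called falsely. Errors were drawn independently for each library, without the pairing of the treated libraries seen in the data. Rows were matched by Ensembl identifier to GENCODE v44, and parents of pseudogenes are the best blastn match (BLAST 2.17.0) among its protein-coding transcripts at an e-value below 1e-10. Promoters and microRNAs are from RefSeq on GRCh38.p14, with 36 members matched to a promoter.

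The members, lists and rules were chosen with earlier results of these data known. Named rows are the 12 most abundant, up to 6 called in each direction per comparison by fold change, those at the floor, antisense rows whose gene was called and overlapping pairs that were both called. Of the 12 most abundant, 1 is not reported here by name. Rows named beyond these (AL034397.3, AC073869.3, AC004847.1, LINC00926, AL365181.3, AL359921.2, AC026403.1, AL049779.3, AL035456.1, AL669831.1, AC011498.1, AC093323.1, RNASEH1-AS1, ITGB2-AS1 and LRRC75A-AS1) were picked after their values were seen. Deviations of same-numbered libraries from their group means correlated across rows at 0.721 to 0.862 for ATRA with combination, at 0.457 to 0.693 for ATRA with palbociclib and at 0.404 to 0.647 for palbociclib with combination, so the numbers were taken to pair the treated libraries. With untreated libraries they were 0.0489 to 0.298.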

Additional observations from a re-analysis of the deposited data

How the results depend on the processing

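Alternatives were 2 other pseudocounts, 3 other filters, a threshold of 0.001, a replicate block, fits of only the groups compared, scaling by median ratio, a residual variance of at least that of rounding, each library left out in turn and, chosen after the data were seen, the first replicates of the treated groups left out. Of 83 named values, 0 changed sign, 33 kept their call throughout and 50 lost it under at least 1 alternative. The counts of called members moved most with the threshold and the block. At 0.001, 14 members were called with ATRA, 0 with palbociclib, 13 with the combination and 10 between combination and palbociclib. Over all tested rows these were 441, 66, 717 and 294.

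With the replicate block 87 members were called with ATRA (54 higher, 33 lower), 30 with palbociclib (17 and 13) and 159 with the combination (104 and 55). Between combination and palbociclib 65 were called, and 0 between combination and ATRA or for additivity. Over all 9659 tested rows the block called 3012, 1126, 3923, 2054, 54 and 37 in these comparisons. Without it these were 1880, 407, 2746, 1168, 29 and 22. Not every pair of untreated and treated libraries correlated above 0.1, so for comparisons with untreated cells the pairing is a hint only.

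With no filter beyond a value above 0, 33 members were called with ATRA and 4 with palbociclib, beside 1926 and 373 of all 15220 rows then tested. With a filter of 5 RPKM 21 were called between combination and palbociclib, with the rounding variance 4 with palbociclib, and with only the groups compared 2 between combination and ATRA. Without the first replicates of the treated groups 14 were called with palbociclib, 5 between combination and ATRA and 4 for additivity. Over all tested rows that fit called 724, 110 and 189. Scaling by median ratio gave 48 higher and 12 lower with ATRA and 82 and 37 with the combination. Over all tested rows it gave 854 and 952 with ATRA and 1276 and 1480 with the combination.

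Leaving out each library in turn gave 29 to 54 called members with ATRA, 3 to 11 with palbociclib, 68 to 112 with the combination, 0 to 1 between combination and ATRA, 22 to 35 between combination and palbociclib and 0 to 2 for additivity. The ATRA count was 29 without ATRA replicate 2 and 29 without ATRA replicate 3. The palbociclib count was 3 without ATRA replicate 3 or palbociclib replicate 2, 4 without untreated replicate 2 or palbociclib replicate 1, and 11 without combination replicate 1. The causes were not tested. Depth per library is unknown from the table, and values of 1 to 3 RPKM are within a few rounding steps of 0.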

Other observations

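A list of 30 well-known lncRNA names was also looked up beside the rows described. One was not in the table under its name, MIR223HG, whose transcript is listed as AL034397.3. EPB41L4A-AS1 and OIP5-AS1 belong to the 715 rows and were not called against untreated cells. Of the other 27, 11 reached the floor, and with ATRA 1 rose and 1 fell, with the combination 2 rose and 1 fell. MIR17HG, the host of a microRNA cluster that drives proliferation, fell from 5, 4 and 4 RPKM to 2 RPKM in each ATRA library (-0.94 ± 0.19 SE, adjusted p = 0.0076). CYTOR rose from 3, 4 and 3 to 5 RPKM in each ATRA library (0.53 ± 0.09, adjusted p = 0.00224). NEAT1, the scaffold of nuclear paraspeckles, had 4, 4 and 2 RPKM untreated and 8, 5 and 6 RPKM with the combination (0.86 ± 0.25, adjusted p = 0.027). HOTAIRM1, a myeloid lncRNA of the HOXA cluster, was below the floor, listed at 0 in all untreated and palbociclib libraries and at 1 or 2 RPKM in the 6 libraries with ATRA.

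Promoter windows of 300 bases in RefSeq were found for 36 of the 715 rows, 45 windows in all. AGGTCA was in 7 of the 45 (15.6%) and in 13.8% of 35116 windows of all genes, searched on both strands. AGTTCA was in 4.44% against 10.4%, CACGTG in 8.89% against 7.26%, TTTGGCGC in 4.44% against 0.652% and TTTCCCGC in 0 against 1.63%. The direct repeat of AGGTCA with 5 bases between was in none of the 45 and in 2 of all windows. Of the 9 windows of rows that rose with ATRA or the combination 3 held AGGTCA, and these belong to 2 genes, AC147651.3 and LINC01001. These shares are descriptions of few windows.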
